A study of Homo sapiens with 24 samples.

Results

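The catalytic mutant BRG1-K785R was set against a GFP control in SW13 cells, an adrenocortical carcinoma line that is known to lack BRG1 and its relative BRM. Cells titled BRG1-K785R Empty carried V5-tagged BRG1 with the K785R change and an empty blasticidin vector, and cells titled GFP Empty carried the V5-tagged control and the same empty vector. The members were the libraries with those titles, 4 of the 24 libraries of the series, 2 in each group. Per the labels, lentivirus was left on every SW13 culture for 48 h, blasticidin and puromycin selection followed over 2 days, and each duplicate had an infection, selection and culture of its own. The control construct is GFP in the titles and the protocol but luciferase in the names of the deposited tables; it is called GFP below. Other SW13 libraries served as points of comparison, 2 per group: BRG1-K785R ERG against GFP ERG, in which the blasticidin vector carried V5-tagged ERG, a transcription factor of the ETS family, and BRG1 Empty, in which the wild-type enzyme stood in place of the mutant.

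BRG1, the product of SMARCA4, is the ATPase motor of BAF (SWI/SNF) complexes, which slide and evict nucleosomes and so open promoters and enhancers. The lysine changed in BRG1-K785R lies in the ATP-binding site, so the mutant can join the complex while its remodelling activity is lost. Cells without BRG1 and BRM keep the other BAF subunits, which makes SW13 a common host for returning either form of the enzyme. All SW13 groups were made by overexpression and selection, so the control cells carry 2 vectors as well, and no uninfected SW13 cells enter these comparisons.

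The 12 SW13 libraries held 19754265 to 26595972 counted reads, and 17018 genes passed the filter on low counts. BRG1-K785R Empty libraries held 26595972 and 22093960 reads, and GFP Empty libraries 22450724 and 25524198. Levels are CPM, the read counts of a gene scaled to TMM-adjusted library totals, given for library 1 and library 2 of a group. A gene is called where its p in edgeR's quasi-likelihood test, two-sided and Benjamini-Hochberg adjusted over all genes tested, is under 0.05, and the ± beside a log2 change is its approximate standard error (SE). Defining genes of the adrenal cortex were near 0 in both groups: 11 of 14 markers averaged under 1 CPM in each, the steroidogenic factor NR5A1 and the side-chain cleavage enzyme CYP11A1 among them. The most abundant was the 21-hydroxylase CYP21A2, with 14.1 and 14.9 CPM in BRG1-K785R Empty cells and 14.2 and 12.1 CPM in GFP Empty cells. The counting program and strand setting are not given, so reads of similar or overlapping sequences could be included and this level is uncertain.

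SMARCA4 followed the labels. It had 2395 and 2226 CPM in BRG1-K785R Empty cells, against 32.0 and 26.9 CPM in GFP Empty cells. The log2 change was 6.29 ± 0.10 (SE), a 78.5-fold difference (adjusted p = 8.06e-31). The mutant and the wild-type transcript did not differ past the threshold, with 2395 and 2226 CPM in BRG1-K785R Empty cells and 2042 and 2067 CPM in BRG1 Empty cells (log2 change 0.17 ± 0.08, adjusted p = 0.0517). In the ERG background the mutant was lower than in the Empty background, at 1385 and 1350 CPM in BRG1-K785R ERG cells against 35.2 and 32.8 CPM in GFP ERG cells. The rise of SMARCA4 was smaller there (log2 change 5.33 ± 0.10, difference from Empty cells -0.97 ± 0.12, adjusted p = 1.03e-07). SMARCA2, which encodes BRM, had 29 reads in both BRG1-K785R Empty libraries together and 3 in both GFP Empty libraries, a ratio of 10.1 with an exact 95% counting interval of 3.12 to 51.6. ERG had no reads in BRG1-K785R Empty cells and at most 0.0826 CPM in GFP Empty cells.

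The BRG1-K785R Empty libraries stood apart from all other SW13 libraries on 1 component of the variance. On the second principal component of log CPM (18.2% of the variance) they lay at 68.1 and 64.6, while the other 10 libraries lay between -38.9 and 12.3. On the first component (54.4%) they lay at -40.1 and -40.97, beside -43.02 and -44.55 for GFP ERG libraries. There the BRG1 Empty and BRG1 ERG libraries lay apart, between 70.2 and 89.4. The components cover all genes tested, and which genes set them was not examined. BRG1-K785R Empty libraries also differed from the rest in transcripts of particular RNA types. RNA45S5, the 45S precursor of ribosomal RNA, was their most abundant gene, at 1.98% and 2.64% of reads. Its level was 21720 and 28810 CPM in BRG1-K785R Empty cells and 2994 and 13220 CPM in GFP Empty cells, and it spread widely within the control. RMRP, the RNA of the RNase MRP particle, had 14.4 and 13.3 CPM in BRG1-K785R Empty cells and 0 and 0.661 CPM in GFP Empty cells. RPPH1, the RNA of RNase P, had 7.15 and 7.46 CPM against 0.861 and 1.57 CPM in the same order. These transcripts lack a poly(A) tail in their mature form, and none of the 3 passed the test in the ERG background, where RMRP had 0.297 and 0.191 CPM in BRG1-K785R ERG cells and 0.405 and 0.125 CPM in GFP ERG cells.

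Transcripts that are kept in the nucleus mostly fell. MALAT1, a nuclear speckle RNA, had 88.8 and 94.2 CPM in BRG1-K785R Empty cells, against 916 and 808 CPM in GFP Empty cells (log2 change -3.24 ± 0.14, adjusted p = 2.67e-18). NEAT1, the scaffold of paraspeckles, had 150 and 176 CPM against 685 and 581 CPM in the same order (log2 change -1.95 ± 0.11, adjusted p = 1.88e-15). The MALAT1 groups overlapped in the ERG background, with 994 and 1257 CPM in BRG1-K785R ERG cells and 1274 and 1121 CPM in GFP ERG cells (adjusted p = 0.615). Of 8 nuclear-retained RNAs 7 fell and 1 rose with the mutant in Empty cells, with a median log2 change of -1.64 (26.4% of all genes fell and 32.3% rose), while 4 fell and none rose in the ERG background (20% of all genes fell). The one that rose was TUG1, at 279 and 299 CPM in BRG1-K785R Empty cells against 212 and 209 CPM in GFP Empty cells. Across 15732 genes, the log2 change in Empty cells had a Spearman correlation of 0.163 with the GC content of the transcript, against 0.00894 in the ERG background. The same correlation was 0.00477 for BRG1-K785R Empty against BRG1 Empty, which shares the mutant libraries. Which libraries carry the trend was not tested. These values are a description, since genes of the same libraries are not independent. The part these RNA types have in the results below was not tested. The main results are set beside the ERG background, which shares no library with the Empty comparison.

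**Figure D1:**
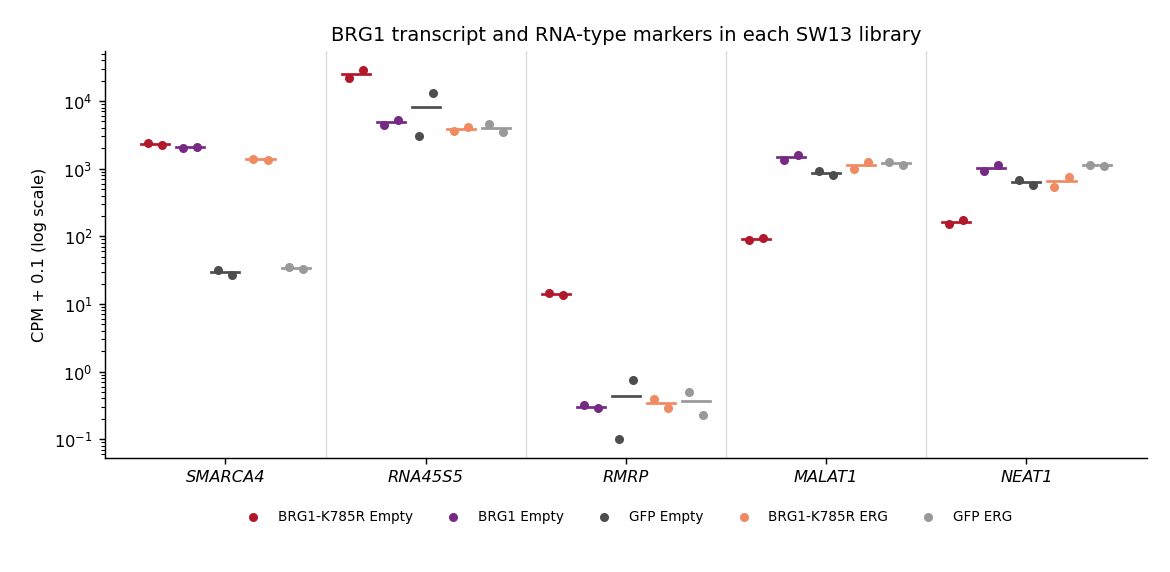
Levels in each library (points; CPM + 0.1 on a log scale, the line is the mean of a group's 2 libraries) of SMARCA4 and of 4 RNA-type markers in 5 SW13 groups. SMARCA4 is at 2395 and 2226 CPM in BRG1-K785R Empty cells and at 32.0 and 26.9 CPM in GFP Empty cells, and the BRG1-K785R Empty libraries are the highest for RNA45S5 and RMRP and the lowest for MALAT1 and NEAT1.

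Over all genes, 9983 of 17018 were called between BRG1-K785R Empty and GFP Empty cells (58.7%). Of these 5491 were higher (32.3% of genes tested) and 4492 lower (26.4%). Scaled by library totals, 47.6% of the called genes were higher, against 55% with TMM factors. Changes of at least 2-fold were fewer, with 1068 genes higher (6.28%) and 1209 lower (7.1%). The median log2 change over all genes was 0.05. With a common biological coefficient of variation of 0.0571 over all 6 SW13 groups, calls reached small changes, so counts of called members below are read against these shares. Duplicates of the groups compared agreed less well than those of some others. A chi-square of duplicates against counting error alone was 13.1 per degree of freedom in GFP Empty cells, the largest of the groups. It was 7.25 in BRG1-K785R Empty cells and 2.27 in GFP ERG cells, the smallest. The sum covers all genes, RNA45S5 among them, with 66082 and 320142 reads in the GFP Empty libraries. It was not computed without RNA45S5, so the order of the groups need not hold without that gene.

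Among the largest rises, SRPX2, which encodes a secreted sushi-repeat protein, had 6.402 and 6.82 CPM in BRG1-K785R Empty cells and no read in either GFP Empty library, at least 50.9-fold higher when each control library is set at a floor of 3 reads. GPC4, a glypican on the cell surface, had 50.7 and 44.0 CPM against 4.71 and 4.503 CPM in the same order (log2 change 3.36 ± 0.11, adjusted p = 1.88e-21). MYOF, which encodes the membrane repair protein myoferlin, had 30.1 CPM in both BRG1-K785R Empty libraries, against 3.40 and 3.47 CPM in GFP Empty cells (log2 change 3.13 ± 0.12, adjusted p = 4.39e-20). The libraries of the 2 groups do not overlap for these genes, which the rule that chose them required. ATF3, a stress-induced transcription factor, had 15.7 and 11.4 CPM against 0.453 and 0.702 CPM in the same order, a 23.1-fold rise (adjusted p = 1.18e-16). SMOX, the spermine oxidase, had 24.9 and 21.1 CPM against 3.04 and 2.15 CPM (log2 change 3.16 ± 0.15, adjusted p = 1.8e-17).

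The other large rises were PDLIM1, an actin-associated PDZ and LIM domain protein, LAMP3, a lysosomal membrane protein, CHAC1, which degrades glutathione, and the copper amine oxidases AOC2 and AOC3. Their log2 changes lay between 3.10 and 3.62. AOC2 and AOC3 are similar in sequence, so the counting could share reads between them and the split between the pair is uncertain. AOC2 had 11.9 and 9.93 CPM in BRG1-K785R Empty cells and 1.09 and 0.702 CPM in GFP Empty cells. The difference of its rise between the backgrounds did not pass the test, with 9.11 and 11.5 CPM in BRG1-K785R ERG cells against 1.05 and 1.42 CPM in GFP ERG cells (log2 changes 3.62 ± 0.23 in Empty and 3.05 ± 0.21 in ERG cells, difference -0.56 ± 0.36, adjusted p = 0.234). MYOF had a log2 change of 2.85 ± 0.12 in ERG cells, with a difference of -0.28 ± 0.19 that did not pass either (adjusted p = 0.243). SRPX2 rose in the ERG background as well, where it had 0.891 and 1.10 CPM in BRG1-K785R ERG cells and no read in GFP ERG cells, at least 8.06-fold higher.

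Among the largest falls, ALDOC, the brain-type aldolase of glycolysis, had 0.744 and 0.840 CPM in BRG1-K785R Empty cells, against 13.2 and 11.5 CPM in GFP Empty cells, a 15.6-fold fall (log2 change -3.96 ± 0.21, adjusted p = 1.32e-16). PDK1, the kinase that shuts off pyruvate dehydrogenase, had 7.77 and 8.89 CPM against 80.6 and 63.0 CPM in the same order (log2 change -3.11 ± 0.12, adjusted p = 4.91e-20). RAB26, a small GTPase of secretory vesicles, had 2.97 and 2.32 CPM against 27.1 and 21.9 CPM (log2 change -3.19 ± 0.17, adjusted p = 1.83e-16). The rule that chose these 3 genes required groups that do not overlap in Empty cells, and all 3 also fell in the ERG background, with log2 changes of -3.99, -2.36 and -1.81 in the order given. PPFIA4 (liprin alpha-4, a synaptic scaffold) had 5.58 and 5.68 CPM against 51.2 and 40.2 CPM. SSPO, which encodes SCO-spondin, had 1.61 and 0.938 CPM against 18.6 and 12.3 CPM.

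UPK1A, a uroplakin gene, and its antisense partner UPK1A-AS1 fell together. UPK1A had 1.36 and 1.58 CPM in BRG1-K785R Empty cells and 9.24 and 7.85 CPM in GFP Empty cells, and UPK1A-AS1 had 0.785 and 0.494 CPM against 8.43 and 7.64 CPM. The strand setting of the counts is not given in the sources used here, so reads of such a pair cannot be told apart, and the same holds for CBR3-AS1 (log2 change -3.02 ± 0.21). MRO and SCART1 had log2 changes of -2.89 ± 0.27 and -2.54 ± 0.26. PMCH, the precursor of melanin-concentrating hormone, had 1.53 and 1.38 CPM against 8.02 and 9.58 CPM. PMCH and CBR3-AS1 did not pass the test in the ERG background (log2 changes 0.21 ± 0.15 and -0.05 ± 0.15).

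**Figure D2:**
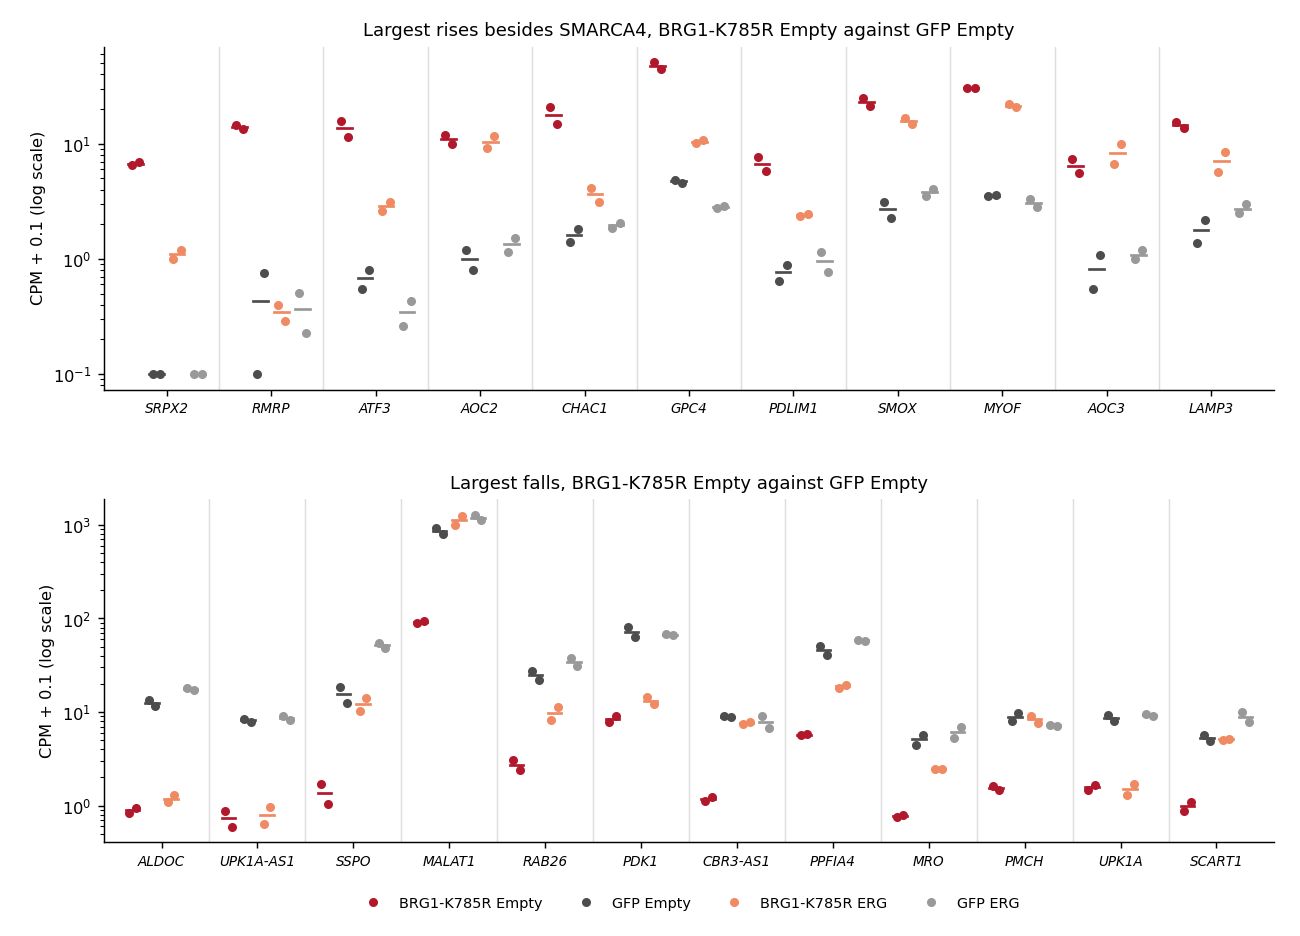
Levels in each library (points; CPM + 0.1 on a log scale, lines are group means of 2 libraries) of the largest rises besides SMARCA4 (upper panel) and the largest falls (lower panel) with BRG1-K785R, beside the same genes in the ERG background. The genes were chosen for groups that do not overlap in Empty cells, and the points of RMRP, MALAT1 and CBR3-AS1 overlap between BRG1-K785R ERG and GFP ERG libraries.

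Genes of glycolysis and of the response to low oxygen mostly fell. Glycolysis turns glucose into pyruvate and lactate, and the factor HIF drives many of its genes when oxygen is short. Of 27 members tested 20 fell with BRG1-K785R in Empty cells, 1 rose and 6 did not pass the test, with a median log2 change of -0.93 (26.4% of all genes fell, median 0.05). In the ERG background 22 of the 27 fell and 1 rose, with a median of -0.97, where 20% of all genes were called lower and 20.5% higher. All 20 members that fell in Empty cells also fell in ERG cells. The list was written with earlier results of these data known, so the counts describe it and are no test of it.

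The falls ran along the pathway. HK2, the hexokinase that traps glucose, had 32.5 and 31.7 CPM in BRG1-K785R Empty cells, against 97.4 and 86.5 CPM in GFP Empty cells (log2 change -1.52 ± 0.08, adjusted p = 5.29e-16). PFKFB4, which makes the activator of phosphofructokinase, had 14.8 and 14.7 CPM against 72.6 and 59.0 CPM in the same order (log2 change -2.16 ± 0.10, adjusted p = 3.58e-18). PGK1, phosphoglycerate kinase, had 441 and 428 CPM against 1185 and 1102 CPM, a 2.63-fold fall (log2 change -1.40 ± 0.08, adjusted p = 4.06e-16). The libraries of the 2 groups did not overlap for any of these genes, as was so for 13217 of the 17018 genes tested (77.7%). ENO2, the neuronal enolase, had 37.5 and 36.9 CPM against 117 and 106 CPM. LDHA, the lactate dehydrogenase subunit, had 547 and 599 CPM against 1313 and 1237 CPM (log2 change -1.15, adjusted p = 2.07e-13).

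Glucose carriers and mitochondrial regulators fell with the enzymes. SLC2A1 and SLC2A3, the glucose transporters GLUT1 and GLUT3, fell to 43.6 and 35.6 CPM and to 149 and 161 CPM in BRG1-K785R Empty cells, against 83.5 and 74.9 CPM and 337 and 370 CPM in GFP Empty cells. BNIP3, a receptor for mitophagy, had 68.6 and 78.0 CPM in BRG1-K785R Empty cells, against 445 and 368 CPM in GFP Empty cells (log2 change -2.47 ± 0.10, adjusted p = 8e-19). Other steps changed less: the log2 change of the enolase ENO1 was -0.30, of the triosephosphate isomerase TPI1 -0.28 and of the aldolase ALDOA -0.38. GAPDH did not pass the test in Empty cells, with 2330 and 2181 CPM in BRG1-K785R cells and 2193 and 2184 CPM in GFP cells (adjusted p = 0.637), and fell in ERG cells (log2 change -0.73, adjusted p = 2.14e-09). VEGFA, the vascular growth factor that HIF also induces, was the member that rose, with 50.02 and 44.5 CPM in BRG1-K785R Empty cells against 38.5 and 39.0 CPM in GFP Empty cells. NDRG1, ADM and EGLN3, other genes that low oxygen induces, did not pass the test in Empty cells, with adjusted p of 0.0535, 0.513 and 0.536.

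PGK1 and ALDOC show the 2 sets of libraries side by side. PGK1 had a log2 change of -1.40 ± 0.08 in Empty cells and -1.40 ± 0.08 in ERG cells, where it stood at 359 and 299 CPM with BRG1-K785R against 848 and 885 CPM with GFP. ALDOC fell by 3.96 in Empty and by 3.99 in ERG cells on the log2 scale, and the difference of the effects was -0.03 ± 0.39 (adjusted p = 0.974). For 10 of the 27 members the difference between the backgrounds passed the test, against 39.8% of all genes. Of these members 8 had a lower and 2 a higher log2 change in the ERG background (22.4% and 17.5% of all genes). The higher ones were PDK1 and BNIP3 (differences 0.76 ± 0.16 and 0.68 ± 0.14), whose falls were smaller in ERG cells.

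The promoters of these genes can be read for the core of the hypoxia response element, ACGTG, searched on both strands, where the letters CACGT mark the other strand and the palindrome CACGTG holds both. In the 250 bases before the start, 11 of the 24 members with a RefSeq promoter held it (45.8%), against 2687 of all 11755 promoters of genes tested (22.9%). Of 19 members with a promoter that fell in both backgrounds 9 held it. The letters are a description of this window and no evidence of a bound factor. The windows below are shown as examples of members that held the motif and fell in both backgrounds, in the GRCh38.p14 build as RefSeq gives it, 5′ to 3′ on the gene's strand, with the motif in capitals. They lie at chrX:78104038-78104097 on the plus strand (PGK1), chr17:28576896-28576955 on the minus strand (ALDOC), chr11:18394463-18394522 on the plus strand (LDHA), chr12:6914435-6914494 on the plus strand (ENO2) and chr10:131982024-131982083 on the minus strand (BNIP3).
PGK1: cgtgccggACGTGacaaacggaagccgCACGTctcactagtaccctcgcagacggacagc
ALDOC: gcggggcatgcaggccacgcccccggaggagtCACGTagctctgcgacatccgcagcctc
LDHA: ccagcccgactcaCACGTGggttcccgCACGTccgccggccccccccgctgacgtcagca
ENO2: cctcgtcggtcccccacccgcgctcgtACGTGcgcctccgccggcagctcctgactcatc
BNIP3: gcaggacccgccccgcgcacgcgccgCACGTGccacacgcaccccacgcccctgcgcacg

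Genes of the ATF4 response rose with BRG1-K785R in Empty cells. ATF4 is a transcription factor whose translation goes up when amino acids run short or the endoplasmic reticulum is stressed, and its targets make, import and charge amino acids. Of 20 members 18 rose, 1 fell and 1 did not pass the test, with a median log2 change of 1.35 (32.3% of all genes rose). ATF4 itself had 380 and 315 CPM in BRG1-K785R Empty cells, against 122 and 128 CPM in GFP Empty cells (log2 change 1.47, adjusted p = 2.57e-16). TRIB3, a pseudokinase that feeds back on ATF4, had 124 and 93.9 CPM against 14.6 and 17.7 CPM in the same order (log2 change 2.75 ± 0.11, adjusted p = 2.68e-19). ASNS, asparagine synthetase, had 463 and 426 CPM against 115 and 136 CPM (log2 change 1.83 ± 0.08, adjusted p = 7.63e-18). Both BRG1-K785R libraries lay above both GFP libraries for each of them, while 77.7% of all genes tested had no overlap in one direction or the other.

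SESN2, a sensor that restrains mTORC1, had 78.9 and 63.6 CPM in BRG1-K785R Empty cells, against 14.2 and 14.9 CPM in GFP Empty cells. DDIT3, which encodes the stress factor CHOP, had 85.6 and 74.9 CPM against 21.02 and 24.5 CPM in the same order. The subunits of the large neutral amino acid carrier, SLC7A5 and SLC3A2, had log2 changes of 1.38 and 1.33, and the cystine carrier SLC7A11 one of 1.40. The tRNA synthetases AARS and WARS had log2 changes of 1.20 and 1.18. DDIT4, an inhibitor of mTORC1 that low oxygen also induces, was the member that fell, with 2.56 and 3.56 CPM against 10.96 and 6.69 CPM.

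The size of this rise differed between the backgrounds. In ERG cells 11 of the 20 members rose and 2 fell, with a median log2 change of 0.27. The difference of the effects passed the test for 16 members, and all 16 were lower in the ERG background (22.4% of all genes were). The difference reuses the Empty libraries, in which these 16 were called higher. Of all genes called in Empty cells 55.9% had a called difference in either direction. TRIB3 had 23.7 and 21.01 CPM in BRG1-K785R ERG cells and 20.2 and 19.1 CPM in GFP ERG cells (log2 change 0.19 ± 0.12, adjusted p = 0.217, difference from Empty cells -2.57 ± 0.16, adjusted p = 1.28e-13). ASNS had a log2 change of 0.35 ± 0.08 in ERG cells, with a difference of -1.47 ± 0.12 (adjusted p = 2.48e-11). ATF4 itself rose in the ERG background, with 184 and 196 CPM in BRG1-K785R ERG cells against 101 and 98.4 CPM in GFP ERG cells (log2 change 0.93, adjusted p = 4.58e-11). The libraries with the larger ATF4 rise are those in which RNA45S5 and RMRP were highest and MALAT1 lowest. Their SMARCA4 level was also higher, at 2395 and 2226 CPM against 1385 and 1350 CPM in BRG1-K785R ERG cells. The part of those RNA types or of the SMARCA4 level in the rise was not tested.

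The composite element of C/EBP and ATF factors, TGATGNAA on either strand, lay in the 250 bases before the start of 2 of the 14 members with a RefSeq promoter (14.3%), against 170 of 11755 promoters (1.45%). These members were ASNS (chr7:97872443-97872502, minus strand) and CHAC1 (chr15:40953236-40953295, plus strand), and their windows are printed as above, with the element in capitals, because both genes rose in both backgrounds. In CHAC1 the element is read on the other strand.
ASNS: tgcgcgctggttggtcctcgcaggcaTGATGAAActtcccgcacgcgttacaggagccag
CHAC1: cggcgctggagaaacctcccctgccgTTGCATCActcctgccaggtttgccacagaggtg

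**Figure D3:**
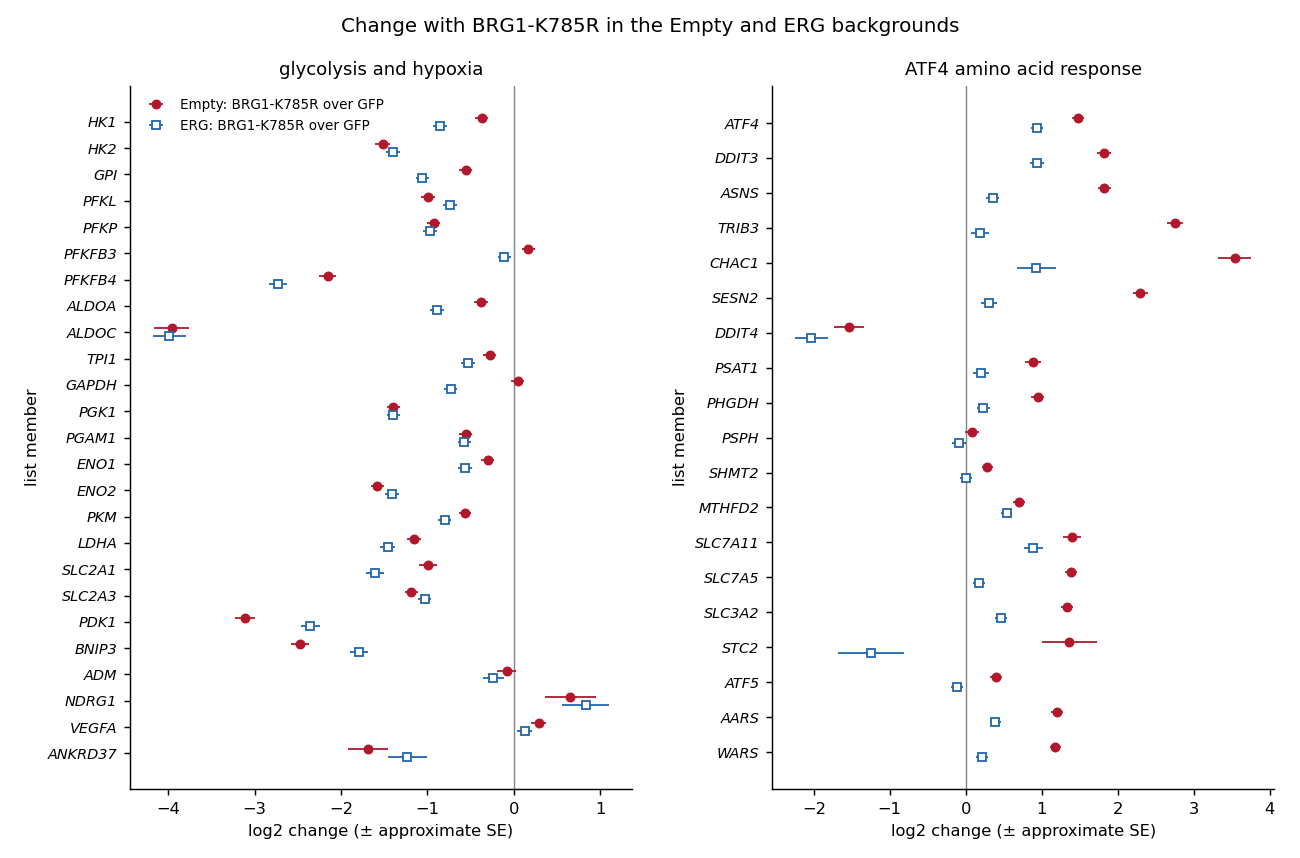
Log2 change with BRG1-K785R over GFP (x axis, bars are the approximate SE) for members of the glycolysis and hypoxia list (left) and the ATF4 list (right), in Empty cells (filled circles) and ERG cells (open squares). CA9, EGLN3 and NUPR1, under 1 CPM in all 8 libraries, are not drawn. Most glycolysis members lie left of 0 in both backgrounds, as PGK1 does at -1.40 in each, while TRIB3 lies at 2.75 in Empty and 0.19 in ERG cells.

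Heat shock chaperones, which fold proteins after stress, rose in both backgrounds. Of 14 members tested 10 rose and none fell in Empty cells, with a median log2 change of 0.73 (32.3% of all genes rose). In ERG cells 12 rose and 1 fell, with a median of 0.50 (20.5% of all genes rose). When the counts were scaled by library totals, or only the compared groups were fitted, 2 members were called lower in Empty cells, and 1 with DESeq2. BAG3, a co-chaperone of HSP70, had 195 and 196 CPM in BRG1-K785R Empty cells, against 60.1 and 64.7 CPM in GFP Empty cells (log2 change 1.64 ± 0.07, adjusted p = 2.88e-18). HSPA1A, the inducible HSP70, had 1539 and 1345 CPM against 337 and 340 CPM (log2 change 2.09 ± 0.08), and its near-identical copy HSPA1B had 1412 and 1235 CPM against 326 and 327 CPM, so that reads of the pair may be split between them. HSP90AA1, the inducible HSP90, rose in both (log2 changes 0.47 in Empty and 0.70 in ERG cells, difference 0.23, adjusted p = 0.0833). HSPB1, a small heat shock protein, rose in Empty cells (log2 change 0.40) and fell in ERG cells (log2 change -0.65).

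Targets of NRF2, the factor of the oxidant response, rose in Empty cells. Of 16 members 9 rose and 2 fell there, with a median of 0.44 (32.3% of all genes rose and 26.4% fell). In ERG cells 2 rose and 5 fell (20.5% and 20% of all genes). The difference of the effects passed the test for 9 members, all lower in ERG cells (22.4% of all genes were). It reuses the Empty libraries, in which 8 of these were called higher. Of all genes called in Empty cells 55.9% had a called difference. HMOX1, heme oxygenase, had 178 and 103 CPM in BRG1-K785R Empty cells and 27.4 and 30.7 CPM in GFP Empty cells, and stood at 37.6 and 37.3 CPM in BRG1-K785R ERG cells and 38.5 and 39.3 CPM in GFP ERG cells. Its difference between the backgrounds was -2.33 ± 0.19 (adjusted p = 4.01e-11). FTL, the ferritin light chain, had a log2 change of 0.89 in Empty cells and -0.44 in ERG cells. The falls rest on single libraries, since 0 NRF2 targets were called lower in Empty cells without GFP Empty library 1 or without BRG1-K785R Empty library 2.

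Genes that earlier work tied to BRG1 in cells that lack it rose in part. Of 8 such genes 6 rose and 2 fell with BRG1-K785R in Empty cells, and 5 rose and none fell in ERG cells (medians 1.36 and 1.30). Of all genes 32.3% rose and 26.4% fell in Empty cells, and 20.5% rose and 20% fell in ERG cells. CRYAB, the small heat shock protein alpha-B crystallin, had 9.54 and 10.3 CPM in BRG1-K785R Empty cells, against 1.31 and 1.57 CPM in GFP Empty cells (log2 change 2.77 ± 0.17, adjusted p = 3.75e-15). CDKN1A, the CDK inhibitor p21, had 18.9 and 17.6 CPM against 4.67 and 7.60 CPM (log2 change 1.57 ± 0.15, adjusted p = 1.64e-10). CD44, the hyaluronan receptor, had 0.867 and 0.741 CPM against 0 and 0.124 CPM, and CDH1, E-cadherin, 0.702 and 0.642 CPM against 0.136 and 0.124 CPM. SPARC, a matrix glycoprotein, fell in Empty cells, with 0.124 and 0.247 CPM with BRG1-K785R against 0.997 and 0.578 CPM with GFP. The same gene rose in ERG cells, with 4.65 and 3.53 CPM with BRG1-K785R against 0.728 and 1.05 CPM with GFP (difference 4.28, adjusted p = 2.97e-07).

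Genes of the TGF-beta, WNT, YAP and NOTCH pathways were counted against the 32.3% of all genes that rose. In Empty cells 11 of 20 TGF-beta and BMP genes rose and none fell, with a median of 0.70, or 0.66 with the 1 gene that GFP cells lacked set at its bound, and 1 was called lower with library totals, with RLE factors or with only the compared groups in the fit. SMAD7, the inhibitor that TGF-beta induces, had 23.8 and 21.9 CPM in BRG1-K785R Empty cells, against 7.52 and 7.19 CPM in GFP Empty cells (log2 change 1.64 ± 0.11, adjusted p = 1.13e-13). LTBP1, which stores latent TGF-beta in the matrix, had 13.1 and 11.6 CPM against 4.08 and 4.09 CPM in the same order, and it rose in ERG cells too (log2 changes 1.60 ± 0.15 in Empty and 1.55 ± 0.14 in ERG cells). TGFB1, the ligand, rose in Empty cells (log2 change 0.57 ± 0.07) and fell in ERG cells (-0.72 ± 0.07, difference -1.29 ± 0.10, adjusted p = 1.03e-11). In ERG cells 11 of the list rose and 3 fell.

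Of 17 WNT pathway genes 10 rose and none fell in Empty cells (median 0.40), with 1 fall without GFP Empty library 2, and 10 rose and 1 fell in ERG cells (median 0.41). NKD1, a feedback inhibitor of WNT, had 17.5 and 16.6 CPM in BRG1-K785R Empty cells, against 5.62 and 7.23 CPM in GFP Empty cells (log2 change 1.40 ± 0.14, adjusted p = 4.37e-10). FZD7, a WNT receptor, had 47.9 and 46.8 CPM against 28.9 and 30.5 CPM. Of 14 YAP targets 11 rose and 3 fell in Empty cells (median 0.69), and 6 rose and 6 fell in ERG cells. AMOTL2, an angiomotin, had a log2 change of 1.11 ± 0.08, while CTGF, a matricellular YAP target, fell with 1478 and 1451 CPM against 2350 and 2692 CPM (log2 change -0.78 ± 0.07, adjusted p = 3.69e-11). Of 15 NOTCH genes 8 rose and 4 fell in Empty cells, against 6 and 2 in ERG cells. JAG1, a NOTCH ligand, had 336 and 313 CPM against 124 and 123 CPM (log2 change 1.40 ± 0.07), and HES4, a NOTCH target, 47.4 and 52.2 CPM against 134 and 137 CPM (log2 change -1.44 ± 0.08).

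In the matrix and adhesion lists, proteases and their inhibitors rose more often than the background in Empty cells, 13 of 23 with 2 falls. There 32.3% of all genes rose and 26.4% fell. In ERG cells the list had 8 rises and 8 falls (20.5% and 20% of all genes). PLAU, the urokinase, had 14.4 and 14.1 CPM in BRG1-K785R Empty cells, against 3.72 and 3.47 CPM in GFP Empty cells (log2 change 1.99 ± 0.14, adjusted p = 1.04e-13). MMP2, a gelatinase, had 5.21 and 5.24 CPM against 0.725 and 0.9501 CPM. Collagens split evenly, with 3 of 19 rising and 3 falling, COL12A1 among the first (log2 change 1.99 ± 0.22) and COL3A1 among the second (-0.69 ± 0.08). Of 19 integrin and adhesion genes 4 rose and 6 fell, where the alpha-5 subunit ITGA5 rose (log2 change 1.04 ± 0.08) and the alpha-V subunit ITGAV fell (-0.97 ± 0.07). Actin and SRF targets counted 7 rises and 2 falls of 16 in Empty cells, and 2 and 7 in ERG cells. VCL, vinculin, rose in Empty cells (0.70 ± 0.07) and fell in ERG cells (-0.38 ± 0.07), with a difference of -1.08 ± 0.10 (adjusted p = 3.25e-10).

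Lists of cell identity are set against the 32.3% of all genes that rose and the 26.4% that fell in Empty cells. Mesenchymal genes counted 6 rises and 5 falls of 16 (37.5% and 31.2%), near those shares. VIM, vimentin, was at 127 and 114 CPM in BRG1-K785R cells against 61.3 and 67.7 CPM in GFP cells. Epithelial genes counted 6 rises and 3 falls of 17, and KRT18, a keratin, rose less in Empty than in ERG cells (log2 changes 1.43 ± 0.22 and 3.31 ± 0.19, difference 1.89 ± 0.32, adjusted p = 1.89e-05). Neuronal and neuroendocrine genes counted 3 rises and 6 falls of 15: the vesicle proteins SYP and CHGB fell (-1.49 ± 0.08 and -1.64 ± 0.09), and the neuronal tubulin TUBB3 rose (1.14 ± 0.08). HOX genes counted 9 rises and 4 falls of 33 (27.3% and 12.1%), both below the shares of all genes. Their median log2 change was -0.18, or -0.11 with the 1 gene without reads in a group set at its bound. HOXB9 (1.26 ± 0.09) and HOXC10 (1.07 ± 0.08) were among the rises. ETS family genes counted 10 rises and 3 falls of 22, with ELF4 at 1.20 ± 0.08 and ETV1 at -0.89 ± 0.07. Semaphorins and their receptors counted 8 rises and 7 falls of 26 (30.8% and 26.9%), near the shares of all genes. SEMA3D, a secreted guidance cue, was at 113 and 126 CPM in BRG1-K785R cells against 406 and 416 CPM in GFP cells.

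Marker lists of the adrenal cortex and of other cell types stayed low. Their calls stand beside 32.3% of all genes higher and 26.4% lower. The 14 adrenal markers summed to 23.1 to 24.3 CPM in BRG1-K785R Empty cells and 17.4 to 20.97 CPM in GFP Empty cells, with 2 of 6 tested members higher and 1 lower. Among these calls, those of NR0B1 (higher) and INHA (lower) were lost under some alternatives. Prostate line markers summed to 42.9 to 45.5 CPM against 50.6 to 52.8 CPM (1 of 7 higher, 3 lower). Endothelial markers summed to 17.9 to 18.5 CPM against 24.6 to 26.2 CPM (1 of 10 higher, 1 lower). Leukocyte markers summed to 23.9 to 25.1 CPM against 29.04 to 33.3 CPM (none of 4 higher, 2 lower), nearly all of it CD68.

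Growth and housekeeping lists shifted by small amounts. Beside them, 32.3% of all genes rose and 26.4% fell in Empty cells, and 20.5% rose and 20% fell in ERG cells. Cytosolic ribosomal proteins counted 3 rises and 12 falls of 25 in Empty cells (median -0.16), against none and 5 in ERG cells, and RPS14 had 522 and 490 CPM in BRG1-K785R cells against 989 and 955 CPM in GFP cells. Oxidative phosphorylation genes counted 3 rises and 10 falls of 24 (median -0.16), against 5 and 2 in ERG cells, and UQCRH, a hinge protein of complex III, had 54.5 CPM in both BRG1-K785R libraries against 161 and 167 CPM in GFP cells (difference between backgrounds 1.43 ± 0.10, adjusted p = 4.53e-12). Replication genes counted 9 rises and 5 falls of 22, with the licensing factor CDT1 at 1.12 ± 0.08, and mitotic genes 6 and 6 of 20, with CDC20 up (0.95 ± 0.09) and CDK1 down (-0.79 ± 0.09). CDK inhibitors and D cyclins counted 4 rises and 5 falls of 13. Targets of p53 counted 6 and 2 of 19 and histone genes 5 and 3 of 15.

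The same shares of all genes, 32.3% and 26.4% in Empty and 20.5% and 20% in ERG cells, stand beside the next lists. Cholesterol genes counted 12 rises and 5 falls of 23 in Empty cells and 13 and 3 in ERG cells (medians 0.20 and 0.29). HMGCS1, which makes HMG-CoA, rose in both (log2 changes 0.82 ± 0.08 and 0.65 ± 0.08). Fatty acid synthesis genes counted 5 rises and 3 falls of 10, against 1 and 6 in ERG cells, and FASN, the fatty acid synthase, had 1015 and 844 CPM in BRG1-K785R Empty cells against 488 and 511 CPM in GFP Empty cells. Endoplasmic reticulum stress genes counted 6 rises and 4 falls of 15, with HERPUD1 up (1.66 ± 0.09) and PDIA6 down (-0.82 ± 0.07). Metallothionein and zinc genes counted 3 rises and 1 fall of 7.

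Chromatin lists held both directions, as did all genes, with 32.3% higher and 26.4% lower in Empty and 20.5% and 20% in ERG cells. Of 28 BAF subunits 12 rose and 6 fell in Empty cells, against 4 and 5 in ERG cells, where the rises in each include the introduced SMARCA4, and 3 rather than 6 fell without GFP Empty library 2 or without BRG1-K785R Empty library 2. DPF2, a defining subunit of canonical BAF, had 197 and 183 CPM in BRG1-K785R Empty cells, against 80.7 and 82.8 CPM in GFP Empty cells (log2 change 1.22 ± 0.07, adjusted p = 3.1e-15), and SMARCD1, a core subunit, had a log2 change of 1.03 ± 0.07. Both changes were smaller in ERG cells (0.21 ± 0.07 for DPF2 and 0.01 ± 0.07 for SMARCD1), and the difference passed the test for each (adjusted p = 3.66e-09 for DPF2 and 2.14e-09 for SMARCD1). Other remodeler ATPases counted 7 rises and 6 falls of 16, and SMARCA1, an ISWI motor, fell in both backgrounds (-0.59 ± 0.07 in each). Polycomb subunits counted 5 rises and 8 falls of 22, with PHC2 up (0.85 ± 0.08) and BMI1 down (-0.77 ± 0.07).

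Immediate early and ERK genes counted 10 rises and 6 falls of 19 and 7 and 6 of 14. Of all genes 32.3% rose and 26.4% fell in Empty cells, and 20.5% rose and 20% fell in ERG cells. JUN, a subunit of AP-1, had 53.6 and 47.9 CPM in BRG1-K785R Empty cells, against 17.8 and 14.9 CPM in GFP Empty cells, while EGR1, a zinc finger factor, had 82.2 and 88.8 CPM against 263 and 314 CPM. JUN rose and EGR1 fell in ERG cells as well (JUN 2.02 ± 0.12, EGR1 -1.80 ± 0.10 on the log2 scale). DUSP6, the ERK phosphatase, fell (-0.82 ± 0.07), and SPRY4, a feedback inhibitor of receptor kinases, rose (1.63 ± 0.09). Interferon-stimulated genes counted 4 rises and 8 falls of 33 in Empty cells and 8 and 6 in ERG cells, with ISG15 at 35.9 and 28.99 CPM in BRG1-K785R Empty cells against 75.8 and 71.3 CPM in GFP Empty cells. Sensors of foreign nucleic acid and interferons counted 2 rises and 2 falls of 10, antigen presentation genes 5 and 5 of 15, with HLA-E up (1.05 ± 0.08), and NF-kB and cytokine genes 4 and 2 of 15.

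**Figure D4:**
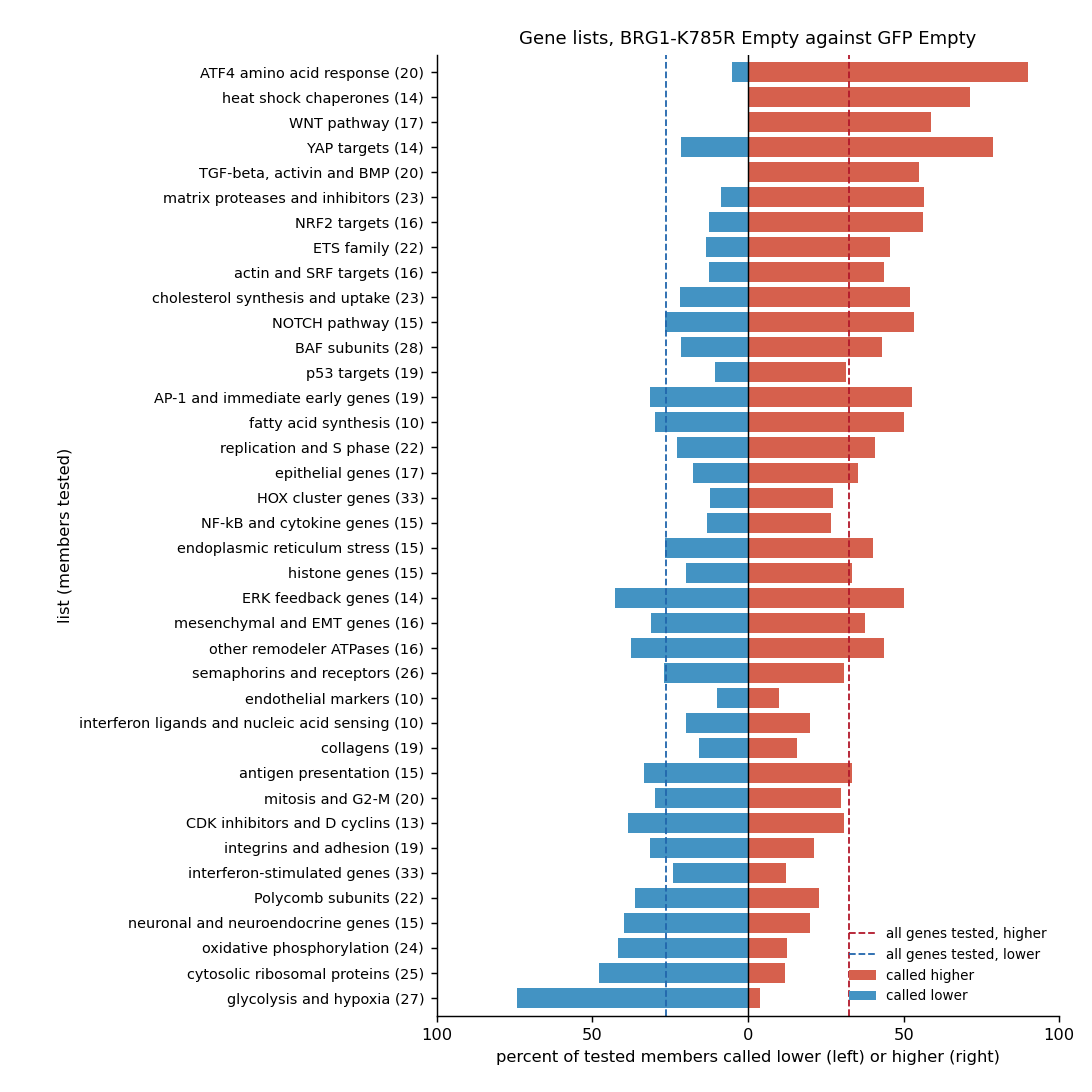
Share of tested members called lower (left, blue) or higher (right, red) between BRG1-K785R Empty and GFP Empty cells, for each list with 10 or more members tested (number in brackets). Dashed lines are the shares over all genes tested, 26.4% lower and 32.3% higher. The glycolysis list extends farthest to the left, with 20 of 27 members lower, and the ATF4 list farthest to the right, with 18 of 20 higher.

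Set beside the ERG background as a whole, the effect of the mutant was partly shared. Between BRG1-K785R ERG and GFP ERG cells 6887 genes were called (40.5%), 3483 of them higher and 3404 lower. Scaled by library totals, 60% of the called genes were higher, against 50.6% with TMM factors. In both comparisons 3947 genes were called in the same direction, 39.5% of those called in Empty cells and 57.3% of those called in ERG cells, and 890 were called in opposite directions. Of all genes tested, 2155 were higher in both (12.7%), 1792 lower in both (10.5%), 570 higher with the mutant in Empty and lower in ERG cells (3.35%) and 320 the reverse (1.88%). Across all genes tested the log2 changes had a Pearson correlation of 0.469 and a Spearman correlation of 0.446, as a description, since genes of one set of libraries are not independent. The median size of a log2 change was 0.44 in Empty cells and 0.27 in ERG cells. The rise of SMARCA4 was also smaller in ERG cells (log2 changes 6.29 in Empty and 5.33 in ERG cells), and its part in these differences was not tested.

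The genes called the same way with the smallest p in the weaker background were SMARCA4, MYOF and a run of falls. Among the falls were P4HA1, a collagen prolyl hydroxylase, CA11, a carbonic anhydrase-related protein, SEMA3D and EGR1, beside PFKFB4, PDK1, ALDOC, PGK1, ENO2 and BNIP3 of glycolysis and hypoxia. P4HA1 had 76.0 and 88.6 CPM in BRG1-K785R Empty cells, against 330 and 304 CPM in GFP Empty cells, and 117 and 96.3 CPM in BRG1-K785R ERG cells against 308 and 315 CPM in GFP ERG cells. CA11 had 20.7 and 21.1 CPM against 75.6 and 74.3 CPM in Empty cells, and 28.4 and 26.3 CPM against 80.6 and 85.7 CPM in ERG cells. The groups did not overlap in either background for P4HA1 or CA11, and in Empty cells 77.7% of all genes tested had no overlap.

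**Figure D5:**
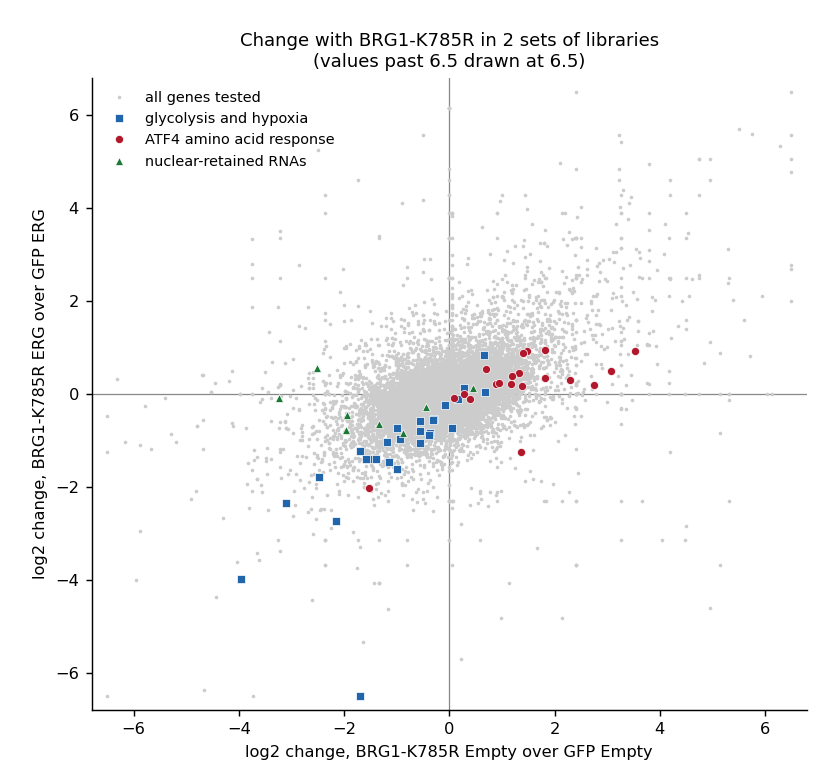
Log2 change of each gene tested with BRG1-K785R over GFP, in Empty cells (x axis) and ERG cells (y axis), with 3 lists coloured and values past 6.5 drawn at 6.5. Most glycolysis and hypoxia members lie below 0 on both axes, most ATF4 members lie right of 0 with smaller values on the y axis, and MALAT1 lies at -3.24 on the x axis and -0.09 on the y axis.

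A direct test of the difference, ERG minus Empty, called 6776 genes (39.8%), 2971 with a higher (17.5%) and 3805 with a lower (22.4%) log2 change in ERG cells. Scaled by library totals, 59.8% of the called differences were higher, against 43.8% with TMM factors, and the median of all genes moved by 0.13. Of the 9983 genes called in Empty cells 5579 also had a called difference (55.9%). Among the 3947 genes called the same way in both backgrounds, 2622 had no called difference. RSPO1, a secreted WNT agonist, went opposite ways, with 6.53 and 6.96 CPM in BRG1-K785R Empty cells against 31.5 and 22.3 CPM in GFP Empty cells, and 57.9 and 67.3 CPM in BRG1-K785R ERG cells against 16.4 and 17.0 CPM in GFP ERG cells.

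Against wild-type BRG1, the mutant had lower levels of interferon-stimulated genes and of most genes tied to BRG1 before. Between BRG1-K785R Empty and BRG1 Empty cells 11345 genes were called (66.7%), 5800 higher (34.1%) and 5545 lower (32.6%). Scaled by library totals, 34% of the called genes were higher, against 51.1% with TMM factors, and the median of all genes moved by -0.21. Changes of at least 2-fold were mostly downward, with 2672 genes lower (15.7%) and 697 higher (4.1%). This comparison shares the BRG1-K785R Empty libraries with that against GFP, and BRG1 Empty against GFP Empty shares the GFP libraries, so their values are set side by side only.

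Interferon-stimulated genes were lower with the mutant than with the wild type in all 33 members tested (32.6% of all genes were). OAS2 and OAS1, sensors of double-stranded RNA, had no read in BRG1-K785R Empty cells and 20.7 and 25.3 CPM and 18.1 and 19.3 CPM in BRG1 Empty cells, at least 169-fold and 137-fold lower. SAMD9L, UBD and MX2, also interferon-induced, and COLCA1 had no read with the mutant either, and were at least 88-fold, 51.3-fold, 39.1-fold and 73.1-fold lower in that order. IFI6 had 7.06 and 7.11 CPM in BRG1-K785R Empty cells, 289 and 315 CPM in BRG1 Empty cells, and 17.2 and 15.5 CPM in GFP Empty cells. Its level with the mutant was thus below both, by a log2 change of -5.41 ± 0.11 against BRG1 and -1.20 ± 0.12 against GFP.

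Several genes lay between GFP and wild-type BRG1. MYOF had 30.1 CPM in both BRG1-K785R Empty libraries, 393 and 376 CPM in BRG1 Empty cells, and 3.40 and 3.47 CPM in GFP Empty cells. CRYAB had 9.54 and 10.3 CPM, 455 and 421 CPM, and 1.31 and 1.57 CPM in the same order. PDLIM1 had 7.52 and 5.68 CPM with the mutant, 64.3 and 67.8 CPM with BRG1 and 0.544 and 0.785 CPM with GFP. Of the 8 genes tied to BRG1 before, 7 were lower and 1 higher with the mutant than with the wild type, and the one that was higher was CDKN1A (log2 change 0.64 ± 0.14).

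For other genes the difference between the mutant and the wild type did not pass the test. PGK1 had 441 and 428 CPM in BRG1-K785R Empty cells and 449 and 463 CPM in BRG1 Empty cells (log2 change -0.07 ± 0.08, adjusted p = 0.413), both below the 1185 and 1102 CPM of GFP Empty cells. ATF3 had 15.7 and 11.4 CPM with the mutant and 11.7 and 10.3 CPM with BRG1 (0.31 ± 0.14, adjusted p = 0.059). CA11 had 20.7 and 21.1 CPM with the mutant and 18.7 and 18.5 CPM with BRG1 (0.17 ± 0.09, adjusted p = 0.0882). SMAD7 had 23.8 and 21.9 CPM with the mutant and 25.0 and 22.2 CPM with BRG1 (-0.05 ± 0.10, adjusted p = 0.682).

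Of the 27 glycolysis and hypoxia members 7 were higher and 15 lower with BRG1-K785R than with BRG1, with a median log2 change of -0.29. Of all genes 34.1% were higher and 32.6% lower. With GFP Empty as the control, the median of these members was -0.62 for BRG1 Empty and -0.93 for BRG1-K785R Empty cells, so the list was lower with both forms. ALDOC was 0.744 and 0.840 CPM with the mutant and 9.01 and 11.3 CPM with BRG1 (log2 change -3.68 ± 0.21, adjusted p = 4.59e-16), and 13.2 and 11.5 CPM with GFP. ENO2 had 37.5 and 36.9 CPM with the mutant and 84.6 and 95.4 CPM with BRG1 (-1.28 ± 0.08). The ATF4 list was higher with the mutant than with the wild type in 18 of 20 members and lower in 2, and heat shock chaperones in 13 of 14 and lower in 1. ASNS had 463 and 426 CPM with the mutant and 134 and 131 CPM with BRG1 (1.75 ± 0.08, adjusted p = 5.49e-18), beside 115 and 136 CPM with GFP. The RNA-type markers differed here too, since RMRP, RPPH1, RNA5-8S5 and RNA45S5 were among the 6 largest rises of the mutant over BRG1 with at least 5 CPM in the higher group and no overlap, beside CHAC1 and HMOX1.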

How the data were processed

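Polyadenylated RNA of SW13 cells was sequenced as 75-base single-end reads on a NextSeq 500, per the labels' protocols. Reads were aligned with STAR 2.3.1 to hg19, per the submitters' processing notes; no source used here names the counting program, the annotation or the strand setting. The deposited tables give a raw read count and an RPKM value for 26346 genes. The RPKM values deposited by the authors were the counts rescaled (equal within 0.1% for 100% of values) and were not tested.

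The counts of all 12 SW13 libraries (6 groups of 2) were fitted together with edgeR 4.0.16 in R 4.3.3: TMM factors, filterByExpr, and the quasi-likelihood test with Benjamini-Hochberg adjustment, with 6 residual degrees of freedom. Standard errors were taken as the log2 change over the square root of F. Exact 95% intervals and the floor of 3 reads per library cover counting error only. In simulated counts of 16513 genes, 61, 57 and 81 genes were changed by 1.5, 2 and 4 times in BRG1-K785R Empty libraries only. The rest were left unchanged. Of the changed genes 62.3%, 82.5% and 96.3% were recovered in the Empty comparison, and 12 of 175 calls were false. In the data 58.7% of genes were called, so these shares need not hold there.

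The 44 gene lists (833 of 834 entries matched, 28 by another symbol) and the comparisons were chosen with earlier results of these data known. Named genes were SMARCA4, SMARCA2 and ERG, the 12 largest rises and falls with at least 5 CPM in the higher group and no overlap, the 12 with the smallest p in both backgrounds, the 6 largest each way for the difference and against BRG1, and up to 3 called members of each list by p; other list members named were chosen after their values were seen. Promoters are RefSeq's, GRCh38.p14, matched by symbol. Same-numbered libraries did not deviate together (correlations of deviations from -0.0982 to 0.12), so no block was used. Alternatives were RLE factors, library totals, no filter, DESeq2 1.42.0, only the compared groups, a replicate block and leaving out each library; leaving out RNA45S5 was added after seeing the data. With duplicates, p-values measure the spread between cultures infected separately.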

Additional observations from a re-analysis of the deposited data

Results flagged for a closer look

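The results here are those in which the effect of BRG1-K785R differed between the ERG and Empty backgrounds by a direct test, given as ERG minus Empty on the log2 scale. The difference was called for 6776 genes.

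RSPO1, a secreted WNT agonist, had a difference of 3.90 ± 0.18 (edgeR, adjusted p = 2.04e-17), with a fall in Empty cells and a rise in ERG cells. APLN, the ligand apelin, differed by 3.28, with 0.867 and 1.09 CPM in BRG1-K785R Empty cells against 1.18 and 1.32 CPM in GFP Empty cells, and 15.2 and 15.5 CPM in BRG1-K785R ERG cells against 2.02 and 2.05 CPM in GFP ERG cells. CEACAM1, an adhesion molecule, differed by 2.70, with 8.02 and 7.83 CPM in BRG1-K785R ERG cells against 3.68 and 3.76 CPM in GFP ERG cells, and under 1.05 CPM in every Empty library of the pair. PMCH differed by 2.80 and CBR3-AS1 by 2.98, both of which fell in Empty cells and did not pass the test in ERG cells.

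Among negative differences, HRNR, the epidermal protein hornerin, differed by -2.86, with 1.48 and 1.34 CPM in BRG1-K785R ERG cells against 7.08 and 6.52 CPM in GFP ERG cells. NID1, a basement membrane nidogen, also differed by -2.86, with 9.34 and 9.98 CPM in BRG1-K785R Empty cells against 1.99 and 1.74 CPM in GFP Empty cells. CHAC1 differed by -2.61 and TRIB3 by -2.57, as members of the ATF4 list.

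The RNA-type markers differed as well, RMRP by -5.45, RPPH1 by -2.46 and MALAT1 by 3.15. The RPPH1 difference lost its call with DESeq2 (-2.45, adjusted p = 0.0525) and without GFP ERG library 1 (adjusted p = 0.433). SMARCA4 itself differed by -0.97, and whether its level or these RNA types have a part in the other differences was not tested.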

How the results depend on the processing

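The counts of called genes stayed within 1.5 times the values given under all 48 alternatives run, and none of the 166 genes named by rule reversed. With a replicate block the calls numbered 9954 (Empty), 6863 (ERG), 6747 (difference) and 11293 (against BRG1), although the replicate numbers did not pair the libraries. DESeq2 called 9286, 6070, 6119 and 10485 in that order. Leaving out 1 library at a time gave 8568 to 9147, 4905 to 5932, 5602 to 6362 and 9955 to 10456. Without RNA45S5, an alternative chosen after seeing the data, the Empty comparison called 9980 genes. Against BRG1, genes called higher numbered 3848 with library totals, against 5800 with TMM. Of 2135 alternatives over those genes 14 lost the call, all of them for RPPH1, INHA, NR0B1 and CD68: NR0B1 in 8 (adjusted p from 0.052 to 0.224), INHA without GFP Empty library 1 (0.21) or BRG1-K785R Empty library 1 (0.0895), and CD68 without GFP Empty library 2 (0.256) or BRG1-K785R Empty library 2 (0.0904). Counts of list members moved past 1.5 times in 68 of 968 alternatives and list medians by more than the spread between replicates in 95 of 484. Duplicates limit the spread estimate, and genes with few reads carry wide errors.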
